A study of Mus musculus with 7 samples.

Results

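The TSSs (transcription start sites) described here are those that the Flag ChIP files list with no RefSeq identifier and that lie within 1000 bp of a TSS listed with one on the same chromosome. The rule found 1896 of the 36733 listed TSSs. Of these, 920 had their nearest RefSeq TSS on the same strand, 409 of them upstream of it and 511 downstream, and 976 had it on the opposite strand. The opposite-strand starts were divergent in 703 cases, where both transcripts run away from each other. They were convergent in 273 cases, where the start lies at or downstream of the RefSeq TSS and its transcript runs toward it. The extent of the RefSeq gene was not part of this rule. A RefSeq TSS of each strand lay within the limit for 124 of the 1896, which were placed by the nearer one, and 1691 different RefSeq TSSs served as the nearest neighbour. Another 12133 listed TSSs without identifier lay farther than 1000 bp from any of the 22704 RefSeq TSSs.

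The study was done in E14 mouse embryonic stem cells (ESCs) and asked where Tip60, Hdac6 and p400 bind and how each binding profile depends on Hdac6 or Tip60. Tip60-H3F and Hdac6-H3F are ESC lines in which the endogenous gene carries a C-terminal 6His-3Flag tag. Tip60-H3F cells were profiled by Flag ChIP upon GFP KD, the control knockdown, and upon Hdac6 KD. Hdac6-H3F cells were profiled by Flag ChIP upon GFP KD and Tip60 KD, and untagged wildtype E14 cells by Flag ChIP with no knockdown given. Endogenous p400 was profiled with its own antibody in wildtype E14 cells upon GFP KD and Hdac6 KD. Knockdown cells received lentiviral shRNA and were taken 72 hr after infection. The sample titled Tip60 KD in the Hdac6-H3F line has a genotype label that names Hdac6 KD. The title was followed, so every statement about Tip60 KD rests on it, and knockdown efficiency was not measured by these files. Each condition was 1 sample without replicate. All p-values and intervals below therefore cover the counting of reads in the libraries compared, not the variation between cultures, and they compare libraries rather than conditions.

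Tip60 (Kat5) is the lysine acetyltransferase and p400 (Ep400) the ATPase that exchanges histone H2A.Z within Tip60-p400, a chromatin remodeling complex that ESCs need for their identity. Hdac6 is a class II deacetylase that is largely cytoplasmic in most differentiated cells. Many mammalian genes have several start sites on one strand, and many CpG island promoters start transcripts in both directions, either toward a second protein-coding gene or toward a noncoding RNA. At such a divergent promoter the nucleosomes downstream of one start are the nucleosomes upstream of the other, so a factor bound downstream of both starts appears on both sides of a single annotated TSS.

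The DNA between both starts is shown first for the 6 divergent pairs among the most p400-rich starts whose gap was 30 to 300 bp, because the profiles described below are centred on such stretches. Sequences are from the mm9 genome (NCBIM37 assembly) and run from the start without identifier to the RefSeq start on the RefSeq strand. Capitals mark matches on either strand to 7 motifs, which were the GC box GGGCGG, the ETS site CCGGAAG, the CCAAT box, the TATA box TATAAA, the cyclic AMP response element TGACGTCA, the NRF1 site GCGCATGC and the YY1 site AAGATGG. Matches to GGGCGG may overlap.
Pcbp1 and 1600020E01Rik, chr6:86476160-86476264, minus strand: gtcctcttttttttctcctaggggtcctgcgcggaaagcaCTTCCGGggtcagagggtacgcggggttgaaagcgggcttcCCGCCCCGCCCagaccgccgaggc
Ddx5 and an unannotated divergent start, chr11:106649809-106649951, minus strand: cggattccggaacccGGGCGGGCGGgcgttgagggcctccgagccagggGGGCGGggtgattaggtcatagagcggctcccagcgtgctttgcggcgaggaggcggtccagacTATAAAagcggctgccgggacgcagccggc
Hps5 and Gtf2h1, chr7:54051370-54051472, minus strand: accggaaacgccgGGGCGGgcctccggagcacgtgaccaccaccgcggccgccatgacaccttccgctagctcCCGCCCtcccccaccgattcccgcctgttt
Toe1 and Mutyh, chr4:116480165-116480348, minus strand: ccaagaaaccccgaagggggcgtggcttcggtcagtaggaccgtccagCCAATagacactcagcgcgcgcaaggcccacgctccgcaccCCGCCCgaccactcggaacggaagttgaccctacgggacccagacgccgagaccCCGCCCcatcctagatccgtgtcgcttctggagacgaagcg
Timm9 and 2700049A03Rik, chr12:72237663-72237834, minus strand: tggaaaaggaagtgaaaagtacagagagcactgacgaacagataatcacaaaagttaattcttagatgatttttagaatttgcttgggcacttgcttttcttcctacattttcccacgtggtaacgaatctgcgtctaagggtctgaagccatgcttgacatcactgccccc
D6Wsu116e and an unannotated divergent start, chr6:116158012-116158074, plus strand: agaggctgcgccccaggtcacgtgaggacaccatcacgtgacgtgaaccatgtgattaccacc

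Overlapping GC boxes appeared between Pcbp1 and its divergent lincRNA and upstream of Ddx5, and separate ones in the Hps5 and Toe1 promoters. The Ddx5 stretch held the only TATAAA among the 6, with its first base 30 bp before the RefSeq start. GC content of these stretches ranged from 41.86% at Timm9, where no searched motif was found, to 71.84% at Hps5. Over all 703 divergent starts, the stretch from −250 to 49 bp had 63.95% GC and a mean CpG observed over expected ratio of 0.8073, beside 54.59% and 0.4819 over all listed TSSs. GGGCGG was found in 68.85% of divergent stretches and in 37.44% of all, CCGGAAG in 24.75% and 9.286%, TGACGTCA in 5.974% and 1.851%, and GCGCATGC in 6.117% and 2.673%. TATAAA was rarer at divergent starts, 4.267% against 12.77%, while CCAAT (40.26% and 36.33%) and AAGATGG (8.962% and 6.939%) were nearer to the share of all TSSs. Same-strand starts had 59.91% GC and GGGCGG in 54.46%, and convergent starts 58.75% and 42.86%, with no TGACGTCA match in any of the 273 convergent stretches.

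**Figure D1:**
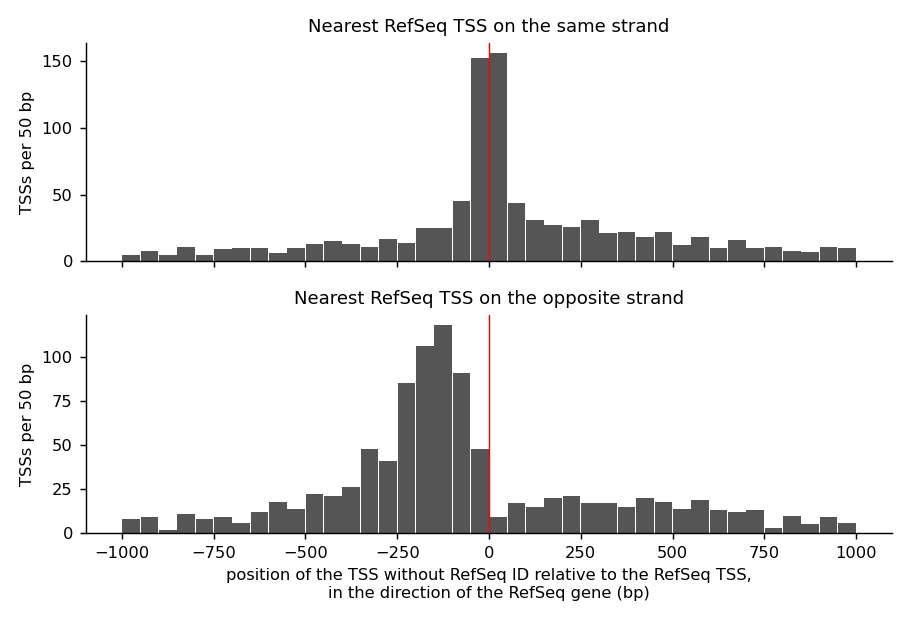
Number of TSSs without RefSeq ID by their offset in bp from the nearest RefSeq TSS, read along the RefSeq gene, in bins of 50 bp, for same-strand and opposite-strand starts. Same-strand starts crowd at the RefSeq TSS, with 156 in the 50 bp from it on, and opposite-strand starts are most frequent 100 to 150 bp upstream, with 118.

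Same-strand starts lay at a median of 155.5 bp from the RefSeq TSS, and 164 of them within 20 bp, so that many were near copies of the RefSeq start. Divergent starts lay at a median of 192 bp and 363 of 703 (51.64%) within 200 bp. Convergent starts lay farther from the RefSeq TSS, at a median of 409 bp. A transcript start of the GENCODE vM1 annotation of mm9 was found within 50 bp of 1400 of the 1896 starts (73.84%), and exactly at 877.

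By that annotation, 673 of the 920 same-strand starts (73.15%) were further starts of the neighbour's own gene and 234 matched no start. Among divergent starts, 263 (37.41%) opened a protein-coding gene, 216 (30.73%) a lincRNA (long intergenic noncoding RNA) and 45 a processed transcript, and 172 matched nothing. Convergent starts were more often noncoding by annotation, with 99 lincRNAs, 32 processed transcripts and 52 protein-coding genes among 273. An annotated exon on the strand of the start covered 750 of 920 same-strand, 543 of 703 divergent and 185 of 273 convergent starts. Outside any annotated gene lay 4 of the convergent starts.

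Signal is given as mean coverage within 500 bp of the TSS in ppm, the deposited unit, in which reads at each position are scaled to the library's normalizing reads. The libraries were normalized to 9226742 to 31375531 reads, read from the step of the values. Isolated reads spanned 148.4 and 148.6 bp in the Hdac6 files but at least 298.8 bp in all other files, which lowers Hdac6 ppm against the others, so Hdac6 was set against untagged by reads. A typical start held few reads, with medians of 15 (Tip60) and 14 (Hdac6) in the GFP KD libraries, 11 for Tip60 after Hdac6 was depleted and 13 in untagged cells among same-strand starts. No read was counted at 23 of the 1896 starts in the Tip60 GFP KD library and at 24 in the Hdac6 GFP KD library. Since 728 same-strand and 775 opposite-strand starts had their RefSeq TSS inside the 500 bp, the signal is that of the shared promoter and cannot be assigned to either start.

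Tip60 enrichment was higher around these starts than at RefSeq TSSs that stood alone. Upon GFP KD it averaged 0.2245 ppm (95% exact counting interval 0.2209 to 0.2281) at same-strand, 0.2359 (0.2317 to 0.2402) at divergent and 0.2126 (0.2062 to 0.2191) at convergent starts. The 15753 RefSeq TSSs with no other listed TSS within 2000 bp had 0.1738 (0.173 to 0.1745), and the distant TSSs without identifier 0.1561 (0.1553 to 0.157). p400 upon GFP KD followed the same order, with 0.3083 ppm at same-strand, 0.3374 at divergent and 0.2982 at convergent starts against 0.2288 at solitary RefSeq TSSs. Hdac6 upon GFP KD was 0.1807, 0.185 and 0.1796 ppm in the same order and 0.139 at solitary RefSeq TSSs. The untagged control was also higher, with 0.1723, 0.1719 and 0.1665 ppm against 0.1503. The p400 files lack these rows, and p400 was read from the neighbour's row moved to the start. The same move applied to Tip60 gave values with a median relative difference of 0.7843% from the deposited ones.

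**Figure D2:**
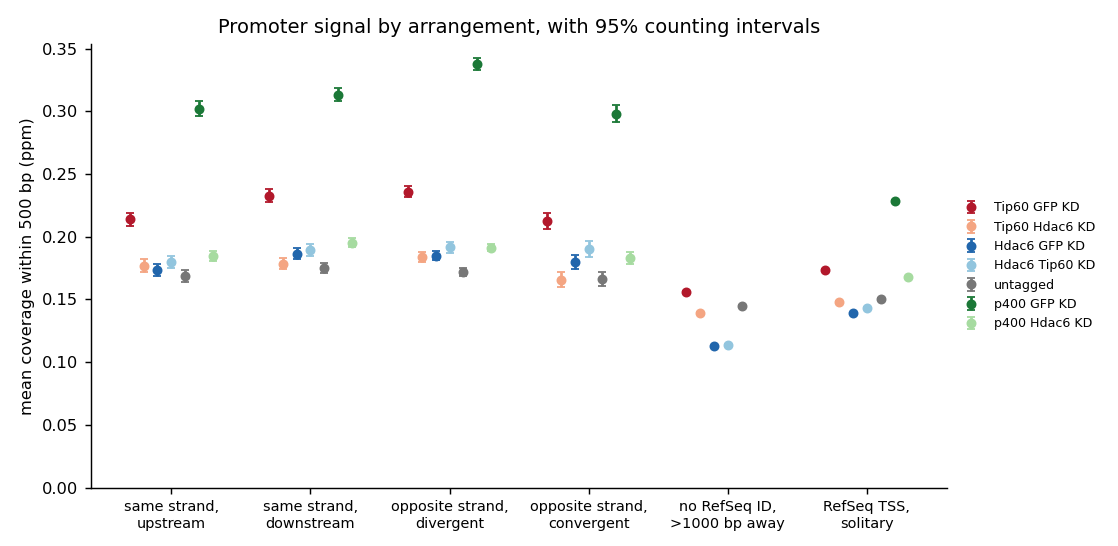
Mean coverage within 500 bp of the TSS in ppm for each sample, by arrangement of the starts and for the other listed TSSs, with points for means over rows and bars for 95% exact counting intervals. p400 and Tip60 upon GFP KD stand highest at divergent starts (0.3374 and 0.2359 ppm), and the Hdac6 KD libraries of Tip60 and p400 lie below their controls in every group shown.

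Levels moved with GC content, and the comparison was therefore repeated in classes of GC within 500 bp. Hdac6 was close between kinds of TSS of one class from 55% GC on but not under 50%, where it was 0.09133 ppm at the starts studied here and 0.06474 at solitary RefSeq TSSs. At 55 to 60% GC it was 0.186 ppm at the 534 starts studied here, 0.1805 at solitary RefSeq TSSs and 0.1794 at distant TSSs without identifier, and at 65% GC or more 0.2296, 0.2283 and 0.2274. Tip60 and p400 differed within classes. At 55 to 60% GC Tip60 was 0.2406 ppm here and 0.2135 at solitary RefSeq TSSs, p400 was 0.3327 and 0.2989, and untagged 0.1845 and 0.1768. At 65% GC or more the same values were 0.2151 and 0.1787 for Tip60, 0.3429 and 0.2956 for p400, and 0.1416 and 0.129 for untagged.

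**Figure D3:**
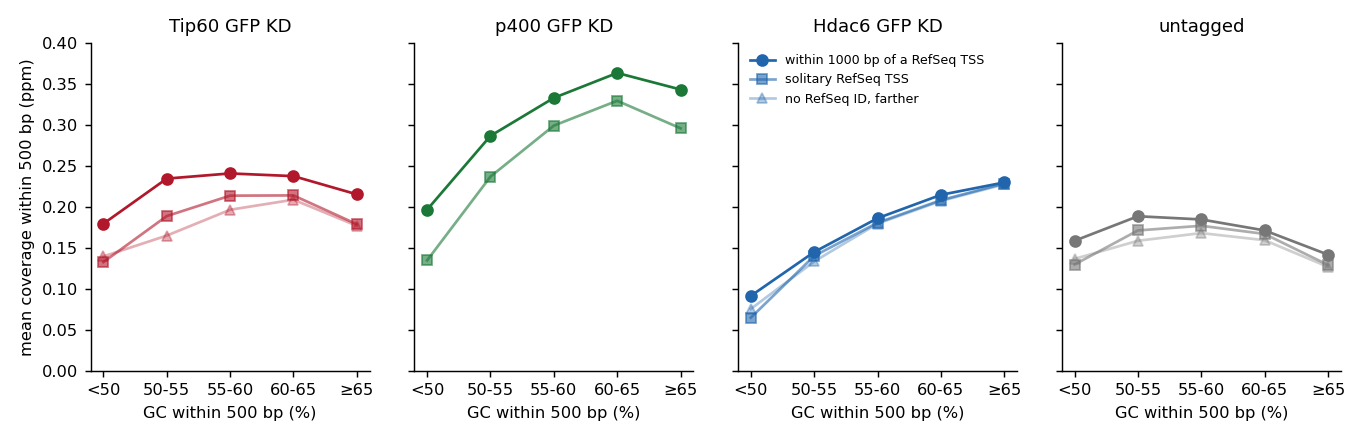
Mean coverage within 500 bp in ppm against the class of GC content, for the TSSs without RefSeq ID near a RefSeq TSS, solitary RefSeq TSSs and distant TSSs without identifier, in 4 panels by ChIP. The lines for Hdac6 are close from 55% GC on (0.186, 0.1805 and 0.1794 ppm at 55 to 60%) and apart under 50% (0.09133, 0.06474 and 0.07543 ppm), and those for Tip60 stand apart at 55 to 60% (0.2406, 0.2135 and 0.1963 ppm).

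Reads within 500 bp were compared with the untagged library start by start, by an exact conditional binomial test (two-sided) with Benjamini-Hochberg adjustment over all 36733 TSSs. Tip60 was above untagged at an adjusted p under 0.05 at 23 of 920 same-strand starts (2.5%) and at 34 of 976 opposite-strand starts (3.484%), where 1.14% of all TSSs passed. Past 2-fold, among starts with 20 or more reads in both libraries together, were 134 of 752 same-strand (17.82%) and 170 of 803 opposite-strand starts (21.17%), beside 14.1% of all TSSs. Over all reads, Tip60 stood 1.302-fold (1.272 to 1.334) above untagged at same-strand and 1.346-fold (1.316 to 1.378) at opposite-strand starts, beside 1.17-fold over all TSSs. Hdac6 passed at 283 same-strand (30.76%) and 303 opposite-strand starts (31.05%), beside 20.2% of all TSSs, and past 2-fold at 391 of 745 (52.48%) and 435 of 819 (53.11%), beside 47.4%. Both comparisons share the untagged library. The Hdac6 calls moved with GC content. In flank windows, 1500 to 2000 bp from a TSS and with no other listed TSS within 1000 bp, the ratio of Hdac6 to untagged reads was 0.9375 under 50% GC and 3.579 at 65% or more, and at the starts it was 1.16 and 3.263. When the expected ratio was taken from flank windows of like GC, 1 same-strand and 0 opposite-strand starts remained above untagged for Hdac6 (20 of all TSSs), and 22 and 29 for Tip60 (390 of all TSSs). In this test, here and below, the 558 starts above the highest GC bin of the flank windows used that bin and were not matched in GC.

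The starts with the smallest adjusted p for Tip60 above untagged are given with their reads. A start 63 bp inside Sf3b3, which encodes a subunit of the U2 snRNP, held 63 Tip60 reads upon GFP KD and 6 untagged reads, a ratio of 11.39 (4.951 to 32.21, exact test, adjusted p = 1.69e-10). At the lincRNA start 1600020E01Rik, 106 bp from Pcbp1, a gene for an RNA-binding protein, the counts were 56 and 8, a ratio of 7.593 (3.6 to 18.44, exact test, adjusted p = 1.24e-07). These starts were chosen by rank of this test, so their values describe the choice. Others past the threshold were a start convergent to Wdr77, the partner of the methyltransferase Prmt5, with 45 Tip60 and 8 untagged reads, starts on both strands near Grwd1, a ribosome assembly factor, with 53 and 11 reads in overlapping windows, and the Pbrm1 start divergent from Gnl3, with 41 and 8. The antisense starts inside Mif, a cytokine gene, counted 4 of the 10 convergent starts that passed, with 30 to 39 Tip60 reads and 6 to 9 untagged reads. Their windows overlap, so they are not separate observations. In the other direction 1 start passed (0.0653% of all TSSs did), convergent to Asl, an enzyme of the urea cycle, with 7 Tip60 and 33 untagged reads (ratio 0.2301), and it is among the 1% of TSSs with the highest untagged signal. The smallest adjusted p for Hdac6 above untagged belonged to a same-strand start 241 bp from that of 5730419I09Rik, with 37 Hdac6 and 6 untagged reads, a ratio of 12.32 (exact test, adjusted p = 4.62e-09), and with flanks of like GC it did not pass (exact test, adjusted p = 0.06924). For Hdac6 the only start below untagged, beside 0.316% of all TSSs, was divergent from Lrrc49, with 3 Hdac6 and 26 untagged reads (ratio 0.2305), and it did not pass with flanks of like GC either (exact test, adjusted p = 0.3949).

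Divergent pairs showed Hdac6 signal on both sides of the shared promoter. At solitary RefSeq TSSs, Hdac6 from −100 to 300 bp exceeded Hdac6 from −600 to −200 bp by 52.91%, and at convergent starts by 50.58%. At divergent starts the same comparison was −8.917%, with more Hdac6 upstream, which is the side of the RefSeq gene. Tip60 differed by 7.393% and untagged by 9.255% between the same windows of divergent starts, and by 3.4% and −9.731% at solitary RefSeq TSSs. GC content of the downstream and upstream windows went the same way as Hdac6. It was 57.37% and 47.17% at solitary RefSeq TSSs, 61.99% and 50.7% at convergent and 59.84% and 62.23% at divergent starts. The part of GC content in these Hdac6 differences was not tested.

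At gaps over 400 bp, the highest smoothed value was sought from 0 to 500 bp into each transcript. Over these 140 pairs, smoothed Hdac6 reached 0.1973 ppm at 160 bp into the transcript without identifier and 0.2339 ppm at 180 bp into the RefSeq gene, each aligned to its own start, with 0.1814 ppm midway between the starts. Tip60 upon GFP KD had the same form as Hdac6, with 0.2573 ppm at 100 bp, 0.2454 ppm at 260 bp and 0.214 ppm midway. p400 upon GFP KD followed another form, with its highest values in that range at or near the starts. It was 0.3474 ppm at 40 bp on the side without identifier, 0.3266 ppm at 0 bp on the RefSeq side and 0.323 ppm midway. Since 0 bp is the edge of the search, the RefSeq value does not locate a maximum. Untagged signal was 0.1631 ppm midway, between 0.1933 ppm downstream of the start without identifier and 0.1493 ppm downstream of the RefSeq start. Its maxima by the same search were 0.2107 ppm at 500 bp and 0.1822 ppm at 400 bp, also above the value midway. A maximum sought over a range tends to exceed the value at 1 point. These maxima alone therefore do not show a dip between the starts. GC content was not level across these regions, with 58.18% on the side without identifier, 60.91% midway and 64.28% on the RefSeq side.

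In the 200 pairs with gaps over 200 and up to 400 bp, the Hdac6 maxima lay nearer, at 80 and 100 bp into the transcripts (0.195 and 0.2347 ppm), around 0.1796 ppm midway. The means from −100 to 300 bp were 0.1844 and 0.2138 ppm. p400 was 0.3806 ppm at 20 bp, and 0.3489 ppm at the RefSeq start, again the edge of the search and below the 0.3597 ppm midway. At gaps up to 100 bp the p400 signal midway was 0.4061 ppm, the highest of the 4 classes of gap.

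**Figure D4:**
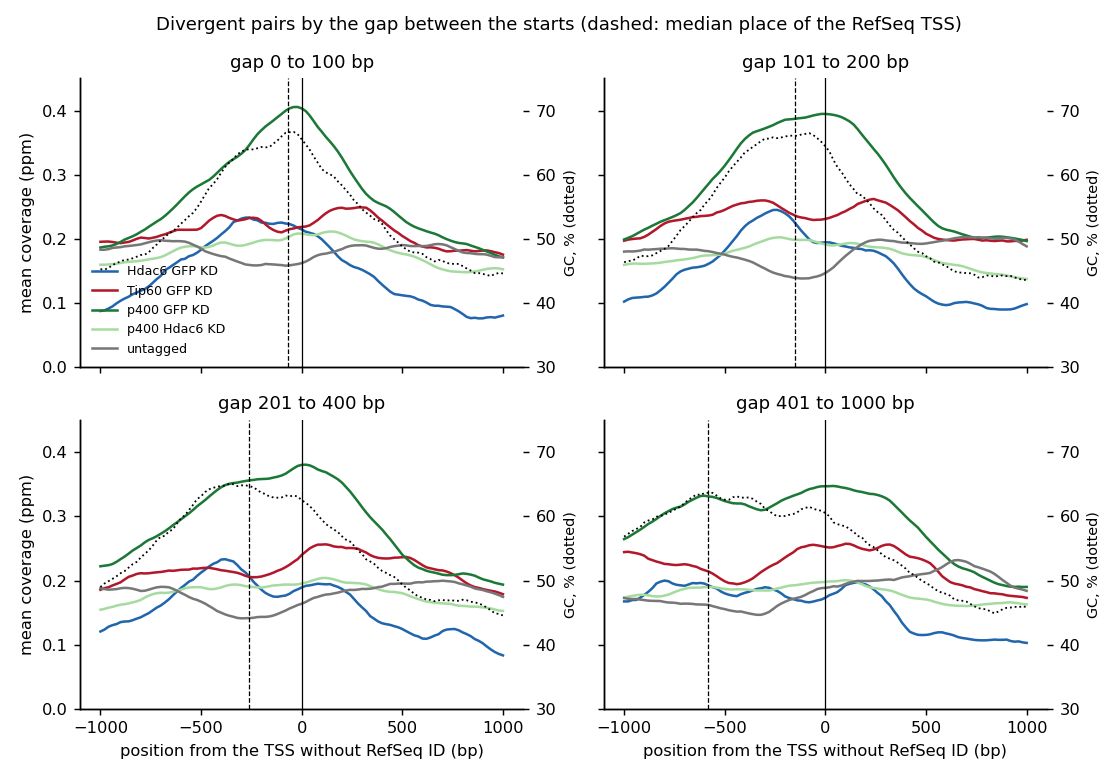
Mean coverage in ppm, smoothed over 100 bp, against position in bp from the start without RefSeq ID for divergent pairs in 4 classes of gap, with GC content dotted on the right axis, the start without identifier at the solid line and the median RefSeq TSS at the dashed line. Aligned to the start without identifier, Hdac6 has a maximum on either side of the starts in the wider gaps, p400 upon GFP KD is highest at or between the starts, up to 0.4061 ppm midway at gaps up to 100 bp, and GC content is higher on the RefSeq side. At gaps over 400 bp, mean Hdac6 downstream of the start without identifier was 0.1815 ppm, level with 0.1814 ppm midway. With each side aligned to its own start, Tip60 upon GFP KD also had maxima above its value midway, 0.2573 and 0.2454 against 0.214 ppm. So did untagged signal, with 0.2107 and 0.1822 against 0.1631 ppm.

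Over the 340 pairs with gaps over 200 bp, Hdac6 downstream of the start without identifier was 0.1832 ppm and downstream of the RefSeq start 0.2115 ppm, a ratio of 0.8664 (95% counting interval 0.8161 to 0.9196). The RefSeq side was higher in 206 pairs and the other side in 134. For Tip60 the ratio was turned, 1.137 (1.074 to 1.204), and for p400 upon GFP KD it was 1.071. The untagged control had 1.184, so the side without identifier carried more background. GC content was 58.99% there and 64.28% on the RefSeq side. In the 59 of these pairs whose sides differed by at most 2.5 points of GC, the Hdac6 ratio was 1.04, with 30 pairs higher on the side without identifier and 29 on the RefSeq side, and over the 138 such pairs of any gap it was 1.001. In the second Hdac6 library, labelled by its title as Tip60 KD, the ratio was 0.7945 over all 340 pairs and 0.8912 in those alike in GC.

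The ratio of the sides is given by the kind of transcript. Where it opened a protein-coding gene, Hdac6 was 0.1992 ppm on its side and 0.2169 on the RefSeq side, a ratio of 0.9185 (0.86 to 0.9814) over 263 pairs of any gap. Where it opened a lincRNA, Hdac6 was 0.1784 and 0.2265 ppm, a ratio of 0.7877 (0.7309 to 0.8482) over 216 pairs. Processed transcripts, over 45 pairs, had 0.1955 and 0.2066 ppm, a ratio of 0.9461 (0.801 to 1.113), with GC content of 58.05% and 64.35% and an untagged ratio of 1.268. The 172 pairs whose start matched no annotated start had 0.1732 and 0.2134 ppm, a Hdac6 ratio of 0.812 (0.7456 to 0.8844). Their GC content was 58.12% and 64.48%, with ratios of 1.094 for Tip60, 1.003 for p400 upon GFP KD and 1.204 for untagged. For protein-coding and lincRNA pairs, Tip60 ratios were 1.033 and 1.053 and p400 ratios 1.034 and 0.9967 in the same order, so both stayed near 1. The difference between kinds of transcript was not itself tested. Over pairs of any gap, GC content moved along, with 62.09% and 63.9% for protein-coding pairs but 58.8% and 66.26% for lincRNA pairs. Untagged signal did so too, with ratios of 1.034 and 1.238. The part of GC content and background in the Hdac6 ratios was not tested.

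Compared with the same upstream window of solitary RefSeq TSSs, the side without identifier had 1.81 times as much Hdac6, 1.478 times as much Tip60, 1.826 times as much p400 upon GFP KD and 1.14 times as much untagged signal at gaps over 200 bp. Within classes of GC the Hdac6 excess was smaller, except under 50% GC, where Hdac6 was 0.1084 ppm at the 32 RefSeq partners with gaps over 200 and up to 400 bp and 0.07104 at solitary RefSeq TSSs. In upstream windows of 55 to 60% GC, Hdac6 was 0.1787 ppm at the 48 such partners and 0.178 at solitary RefSeq TSSs. Tip60 in those windows was 0.2444 and 0.2032 ppm, and p400 0.3547 and 0.2883 ppm, while untagged was 0.1626 and 0.1774 ppm. At 65% GC or more, Tip60 was 0.2503 ppm at 45 partners and 0.1655 at solitary RefSeq TSSs, p400 was 0.4042 and 0.3005, and Hdac6 0.2355 and 0.2195.

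At same-strand and convergent starts the place of Hdac6 differed with distance. At same-strand starts over 300 bp upstream of the RefSeq TSS, Hdac6 upon GFP KD was 0.1847 ppm downstream of the start and 0.1293 upstream, with a maximum of 0.2016 ppm at 80 bp, while the other Hdac6 library had its maximum at −60 bp (0.2115 ppm). At those over 300 bp inside the gene it was 0.1755 downstream and 0.1932 upstream, with the maximum at −320 bp, toward the RefSeq TSS. At convergent starts of that distance it was 0.1973 ppm on the side facing the RefSeq TSS and 0.1147 on the other, with GC of 61.99% and 50.7% in those windows of all convergent starts. Tip60 was flatter, with 0.2033 and 0.1835 ppm on those sides of the same convergent starts.

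Tip60 was lower upon Hdac6 KD across these starts. Mean signal changed by −20.84% (−22.79 to −18.85) at same-strand starts, from 0.2245 to 0.1777 ppm, and by −22.04% (−23.89 to −20.15) at opposite-strand starts, from 0.2294 to 0.1789 ppm. Over all TSSs it changed by −15.17%, at solitary RefSeq TSSs by −14.72% and at distant TSSs without identifier by −10.87%. Tip60 was lower at 620 and higher at 288 of the 920 same-strand starts, and lower at 663 and higher at 307 of the 976 opposite-strand starts. Changes were alike on both sides of divergent pairs, −23.06% on the side without identifier and −23.19% on the RefSeq side. The flanks of the same starts, 1500 to 2000 bp away, changed by −7.592% and −5.037%.

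The ratio of the Tip60 libraries fell with GC content at every kind of position. At these starts it went from 0.9101 under 50% GC to 0.6891 at 65% or more, at solitary RefSeq TSSs from 0.9781 to 0.6901, and in flank windows from 0.978 to 0.6741. With the expected ratio taken from flanks by bins of GC, the mean change was −6.832% at same-strand and −7.454% at opposite-strand starts. The 558 starts above the highest bin took that bin's ratio, 0.8401, whereas flanks of 65% GC or more had 0.6741. These starts were therefore not matched in GC, and their part in the remaining mean change was not tested. The starts lay below flanks of like GC in the 4 lower classes, for example 0.7991 against 0.8322 at 55 to 60%, and above them in the highest.

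Single starts rarely passed the test. Tip60 was lower upon Hdac6 KD at 7 same-strand starts (0.7609%) and 7 opposite-strand starts (0.7172%), where 0.351% of all TSSs passed, and higher at 0 and 1, beside 0.0463%. At an unadjusted p under 0.05 Tip60 was lower at 98 same-strand (10.65%) and 130 opposite-strand starts (13.32%), beside 8.42% of all TSSs, and higher at 14 (1.522%) and 25 (2.561%), beside 2.64%. Past 2-fold with 20 or more reads, 119 of 685 same-strand (17.37%) and 21.83% of 710 opposite-strand starts were lower, beside 16.3% of all TSSs, and 21 and 26 were higher, beside 5.79%.

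The 7 same-strand starts with lower Tip60 were those of S100pbp, Ppp1r15b, Lyar, Dhrs13, Tsc1, Slc25a39 and Coro1b. S100pbp, which encodes a nuclear binding partner of S100P, went from 75 to 19 reads, a ratio of 0.2821 (0.161 to 0.4717, exact test, adjusted p = 0.0003266). Its untagged count was 19 and p400 went from 97 to 30 reads. Ppp1r15b, a regulatory subunit that directs protein phosphatase 1 to the translation factor eIF2α, went from 68 to 25 reads (ratio 0.4094, exact test, adjusted p = 0.03949). Tsc1, a brake on mTORC1 signaling, went from 31 to 6, and Lyar, a nucleolar protein, from 40 to 8.

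The 7 opposite-strand starts were divergent from Pdap1, Ing2, Msi2, Rasal2 and Nab2 or convergent to Rsbn1l and Exoc5. Their other transcripts were Bud31, a spliceosome protein, at Pdap1, with 50 and 10 reads, AA386476 at Ing2, a reader of H3K4me3, with 40 and 7, and the lincRNA C030037D09Rik at Msi2, an RNA-binding protein of stem cells, with 26 and 3. The start within Rsbn1l went from 28 reads to 1, a ratio of 0.03977 (0.0009727 to 0.2406, exact test, adjusted p = 0.001208), while p400 there went from 33 to 16 reads. The single start with more Tip60 was the lincRNA Gm17292, convergent to Timeless, a protein of the replication fork, from 12 to 37 reads (ratio 3.434, exact test, adjusted p = 0.04077). With the expected ratio from flanks of like GC, S100pbp (adjusted p = 0.01488), Rsbn1l (adjusted p = 0.01273) and the Timeless start (adjusted p = 0.02978) passed the exact test, and the other 12 did not.

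p400 was also lower upon Hdac6 KD. It fell from 0.3083 to 0.1906 ppm at same-strand starts, a change of −38.16% (−39.33 to −36.97), and from 0.3265 to 0.1891 ppm at opposite-strand starts, −42.06% (−43.11 to −40.99), with −43.26% at divergent and −38.58% at convergent ones. All RefSeq TSSs changed by −31.24% and solitary ones by −26.74%. The ratio of both p400 libraries was 0.7641 under 50% GC and 0.5307 at 65% or more at these starts, and 0.9515 and 0.5709 at solitary RefSeq TSSs. Flank windows did not follow it in the same way, with 0.9583 under 50%, 1.094 at 55 to 60% and 0.7016 at 65% or more, the last over 138 windows. Scaled by flanks of like GC class, the changes were −36.03% at same-strand and −39.34% at opposite-strand starts.

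**Figure D5:**
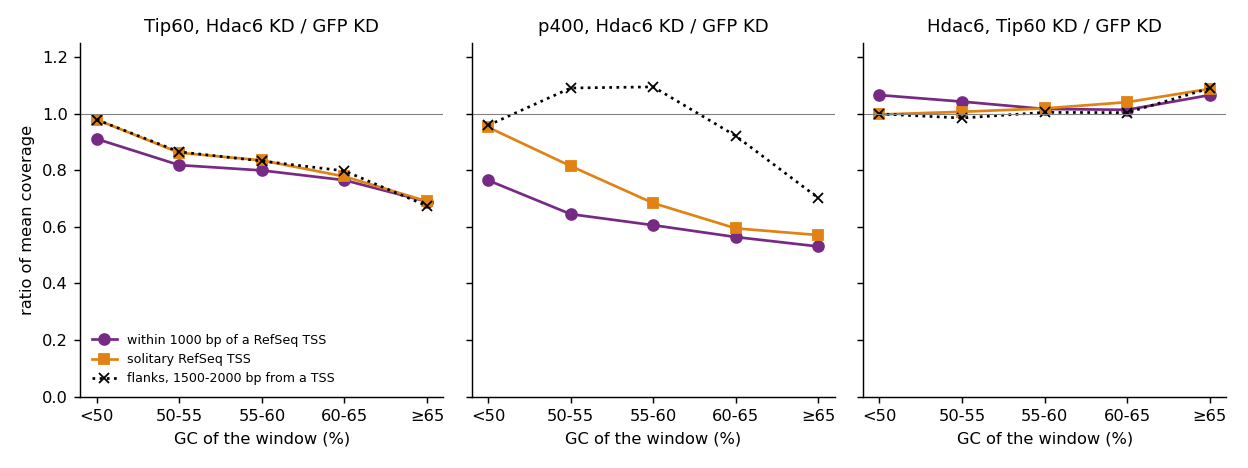
Ratio of the knockdown to the GFP KD library against the class of GC content, for Tip60 and p400 upon Hdac6 KD and Hdac6 upon Tip60 KD, at the TSSs without RefSeq ID near a RefSeq TSS, at solitary RefSeq TSSs and in flank windows. The Tip60 lines fall together (0.6891, 0.6901 and 0.6741 at 65% GC or more), the p400 line of the starts lies below that of the flanks (0.6058 against 1.094 at 55 to 60%), and the Hdac6 lines stay near 1.

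Hdac6 changed little upon Tip60 KD. Its mean signal differed by 2.285% (−0.2923 to 4.927) at same-strand starts, from 0.1807 to 0.185 ppm, and by 4.092% (1.576 to 6.668) at opposite-strand starts, beside 2.392% over all TSSs. No start passed in either direction by the exact test, and 0% of all TSSs were lower and 0.00272% higher. At an unadjusted p under 0.05, 13 same-strand (1.413%) and 9 opposite-strand starts (0.9221%) were lower, beside 1.01% of all TSSs, and 20 (2.174%) and 31 (3.176%) higher, beside 1.57%. Past 2-fold, 17 of 670 and 27 of 743 were lower, beside 3.34% of all TSSs, and 28 and 37 higher, beside 4.01%. On the RefSeq side of divergent pairs with gaps over 200 bp, Hdac6 went from 0.2115 to 0.2339 ppm (10.62%), and on the side without identifier from 0.1832 to 0.1859 ppm (1.445%).

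In the counts that follow, the first of each pair is from the GFP KD control and the second from the knockdown, which was of Hdac6 for p400 and Tip60 and of Tip60 for Hdac6. Among the same-strand starts with the most p400, named by rank of the neighbour's p400 signal, Bax, an effector of apoptosis, had 121 and 38 p400 reads, 70 and 43 Tip60 reads, 30 and 26 Hdac6 reads, and 24 untagged reads. Tip60 stood 3.164-fold above untagged (exact test, adjusted p = 0.0001567), and its ratio upon Hdac6 KD was 0.6841 (0.4567 to 1.014). Rpl23, a protein of the large ribosomal subunit, had 65 and 42 p400, 51 and 28 Tip60, 30 and 21 Hdac6 and 22 untagged reads. At both, Tip60 counts upon Hdac6 KD lay nearer to untagged than those upon GFP KD, without passing the test. Eef2, the translation elongation factor, has its further start 997 bp inside the gene, in an intron, with 52 and 46 p400, 35 and 23 Tip60, 36 and 38 Hdac6 and 17 untagged reads. Bat3 (Bag6), a chaperone for membrane proteins, had 57 and 41 p400, 22 and 16 Tip60, 27 and 17 Hdac6 and 14 untagged reads. H2-T3, a nonclassical MHC class I gene, had 55 and 54 p400 reads (0.6339 and 0.5068 ppm) but 23 Tip60 reads upon GFP KD, as many as untagged. Rbm39, a splicing factor, had 43 and 19 p400, 29 and 23 Tip60, 7 and 12 Hdac6 and 18 untagged reads. Rank by p400 thus covered starts with and without Tip60 above untagged.

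Of the opposite-strand starts with the most p400, the lincRNA start at Pcbp1, whose DNA is printed above, had 81 and 20 p400 reads, 56 and 27 Tip60, 39 and 23 Hdac6, and 8 untagged reads. Its Tip60 lay on the lincRNA side, 0.9216 ppm against 0.2633 on the Pcbp1 side, whereas Hdac6 was higher on the Pcbp1 side, 0.6165 against 0.374 ppm. At Timm9, which encodes a chaperone of mitochondrial import, the divergent start of 2700049A03Rik had 50 and 34 p400, 50 and 36 Tip60, 14 and 10 Hdac6 and 20 untagged reads, and its stretch was the one with the lowest GC content. Ddx5, an RNA helicase with GC boxes and TATAAA before its start, had 68 and 23 p400, 43 and 32 Tip60, 26 and 25 Hdac6 and 25 untagged reads. Both Timm9 and Ddx5 kept over 30 Tip60 reads upon Hdac6 KD, and neither change passed the test.

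At Hps5, a factor of lysosome-related organelles, and Gtf2h1, a TFIIH subunit, the counts were 51 and 33 for p400, 17 and 8 for Tip60, 29 and 15 for Hdac6 and 16 untagged, so Tip60 upon GFP KD was near untagged. Toe1, a nuclear deadenylase, and Mutyh, a DNA glycosylase, shared 39 and 40 p400 (0.4559 and 0.3756 ppm), 32 and 11 Tip60, 15 and 12 Hdac6 and 12 untagged reads. D6Wsu116e had 53 and 26 p400, 31 and 25 Tip60, 29 and 12 Hdac6 and 19 untagged reads. The pairs differed in which ChIP led, since Hdac6 was the one above untagged at Hps5 (ratio 3.621, exact test, adjusted p = 0.0008901) and D6Wsu116e (ratio 3.049, exact test, adjusted p = 0.003033), and neither passed with flanks of like GC (adjusted p = 1).

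Wider pairs and convergent starts completed the rank. Prmt1, an arginine methyltransferase, and its lincRNA Gm15545 had 46 and 32 p400, 41 and 18 Tip60, 11 and 12 Hdac6 and 17 untagged reads. Fam36a and B230369F24Rik had 73 and 24 p400, 33 and 26 Tip60, 18 and 18 Hdac6 and 22 untagged reads. Erh and the zinc transporter gene Slc39a9 had 53 and 33 p400 but 19 and 20 Tip60 reads, beside 17 untagged. Within Zfp335, a zinc finger gene, the antisense start Gm11458 had only 2 untagged reads beside 68 and 26 p400, 25 and 9 Tip60 and 21 and 22 Hdac6. The convergent starts at Wdr77 and Tmem185b had 63 and 17 and 55 and 34 p400 reads, 45 and 30 and 27 and 12 Tip60 reads, 26 and 13 and 37 and 27 Hdac6 reads, and 8 and 13 untagged reads.

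Genes of the complex itself had 5 such starts. The same-strand start 562 bp inside Ep400, the gene of p400, had 14 and 4 Tip60, 24 and 11 Hdac6, 31 and 24 p400 and 12 untagged reads, and the divergent start of Ep400, at 316 bp, had 8 and 6, 16 and 7, 42 and 21, and 11. Epc1, a scaffold subunit, had 25 and 13 Tip60, 18 and 15 Hdac6, 37 and 25 p400 and 17 untagged reads at its same-strand start. At Morf4l2, a chromodomain-related subunit, the divergent start held 25 Tip60 and 3 untagged reads (ratio 9.039, exact test, adjusted p = 0.003), with 12 Tip60 reads upon Hdac6 KD and 40 and 9 p400 reads, while the convergent start, 709 bp from another Morf4l2 TSS, held 6 Tip60 and 9 untagged reads. None of the 5 changed past the threshold upon either knockdown. Rps9, the only gene of the study's qPCR tests with such a start, had 32 and 40 Tip60, 16 and 10 Hdac6, 42 and 24 p400 and 23 untagged reads, with a Tip60 ratio of 1.392 (0.8527 to 2.289).

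Lists of neighbour genes gave few starts each, and no listed start passed the test of Tip60 upon Hdac6 KD or of Hdac6 upon Tip60 KD. The list counts above untagged, here and in the next paragraph, stand beside 1.14% (Tip60) and 20.2% (Hdac6) of all TSSs. Hdac6 passed at 30.76% of all same-strand and 31.05% of all opposite-strand starts, of which 1 and 0 starts remained with flanks of like GC. Cytosolic ribosomal protein genes had 7 same-strand and 4 opposite-strand starts, with Tip60 above untagged at 1 and 0, and a median log2 ratio upon Hdac6 KD of −0.40 and 0.49, beside −0.22 over all TSSs. Their Tip60 averaged 0.4644 ppm in the control and 0.3583 in the knockdown at same-strand starts, and 0.3301 and 0.4377 at opposite-strand starts. Mitochondrial ribosomal protein genes had 5 and 7 starts, with Hdac6 above untagged at 1 and 5 and median log2 ratios of 0.22 and −0.81 for Tip60 upon Hdac6 KD. The medians of both strands thus differ in sign in each of these small lists. Mean Tip60 at the 5 mitochondrial same-strand starts was 0.2984 ppm in the control and 0.2493 in the knockdown, against the sign of their median.

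Developmental transcription factor genes, among them Foxd2, Lhx1 and Sox9, had 19 opposite-strand starts. Tip60 there was 0.1561 ppm upon GFP KD, with 0 starts above untagged, and p400 0.2446 ppm, both below the means over the opposite-strand starts as a whole. Untagged was below it too, 0.1334 against 0.1704 ppm. The median log2 ratio of Tip60 to untagged was 0.33, beside 0.37 for all opposite-strand starts. With 19 starts, 0 cannot be told apart from the 3.484% of all opposite-strand starts. Hdac6 was above untagged at 4 of the 19. Zinc finger genes had 22 and 15 starts, with Tip60 above untagged at 0 and 3, Hdac6 at 5 and 9, and median log2 ratios of −0.04 and −0.18 for Tip60 upon Hdac6 KD. DNA repair genes had Brca2 and Xrcc1 on the same strand and Mre11a and Ogg1 on the opposite one, with Hdac6 above untagged at 0 and 1. Replication-dependent histone genes had 2 opposite-strand starts, at Hist1h2bc and Hist1h4b, with 0.1397 ppm Tip60. No pluripotency gene of the list had a start of this kind, and no small RNA gene had a RefSeq TSS in the files.

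Across starts, Tip60 upon GFP KD went with p400 upon GFP KD (Pearson's r = 0.7073 over 920 same-strand and 0.6497 over 976 opposite-strand starts) more closely than with Hdac6 (0.3594 and 0.3535) or untagged (0.384 and 0.3655). These values describe single libraries, and the starts share GC content, read depth and, where they have a neighbour in common, reads. At the limit of the rule, the 66 starts over 900 bp from a RefSeq TSS had 0.2222 ppm Tip60 and 0.1747 ppm Hdac6 upon GFP KD, and the 47 TSSs up to 100 bp outside it 0.1881 and 0.1574 ppm.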

How the data were processed

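Flag ChIP-seq of 5 samples and p400 ChIP-seq of 2 samples of mouse ESCs, 1 per condition, were used. Per the study's methods, the authors collapsed reads by sequence, mapped them to mm9 with Bowtie (version not given in the sources used here), kept a random match of reads with several, extended them, removed simple repeats, and normalized and binned the sums in 20 bp intervals within 2000 bp of each TSS. Submitters' processing notes name CASAVA 1.8.2. The deposited values are coverage signal along each TSS, and the form of normalization and the source of the TSS list are not given in the sources used here. The stated extension of reads differs from the span seen in most files.

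Reads were recovered from the deposited signal as whole multiples of its step. A pair of libraries' reads within 500 bp were set against each other by a conditional binomial test, exact and two-sided, adjusted after Benjamini and Hochberg over all 36733 TSSs and called at an adjusted p under 0.05, with no filter on low values, or at 2-fold with 20 or more reads. Intervals are 95% exact counting intervals. The expected share came from the normalizing reads. Averages used −100 to 300 bp (downstream), −600 to −200 bp (upstream) and 500 bp on either side. p400 rows were joined by identifier and file order, checked on 102 pairs of rows with 0 swapped. Starts were matched to GENCODE vM1 within 50 bp. GC content of flank windows came from the NCBIM37 genome, and 558 starts above its highest bin used that bin. Neighbour genes were grouped in 10 lists. The same-strand starts of developmental factors are not reported here. Named were the 8 same-strand (at least 100 bp away) and 12 opposite-strand starts with the highest neighbour p400, outside the 1% highest untagged rows and chromosome 18, all starts in the complex, qPCR and pluripotency lists, and up to 3 starts per direction and comparison with the smallest adjusted p. Other starts past the threshold were named after their values were seen. The members and lists were chosen with earlier results of these data known. The test was checked on simulated data. Software was Python 3.11.15 with numpy 2.4.6, scipy 1.17.1 and matplotlib 3.10.9.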

Additional observations from a re-analysis of the deposited data

How the results depend on the processing

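No paired analysis was possible because each condition had 1 sample, and no replicate could be left out for the same reason. Alternatives left 154 values within their counting interval or within 1.5 times the count, moved 51 and turned 1. With 250 bp on either side, Tip60 was above untagged at 0.6522% of same-strand and 0.4098% of opposite-strand starts (117 of all TSSs). Hdac6 was above untagged at 15.22% and 12.91% (3713 of all TSSs). Tip60 was lower upon Hdac6 KD at 0% and 0.1025% (10 of all TSSs). It was higher at 0% of opposite-strand starts (1 of all TSSs). With 1000 bp, Tip60 was above untagged at 3.804% of same-strand starts, lower upon Hdac6 KD at 1.522% and 1.639%, and higher at 0.2049% of opposite-strand starts. Among all TSSs the counts were 588, 441 and 63. At an adjusted p under 0.01 the shares were 1.63% and 1.639% for Tip60 and 16.63% and 17.01% for Hdac6 above untagged, 0.1087% and 0.3074% for Tip60 lower and 0% for Tip60 higher at opposite-strand starts, which was also 0% within a distance of 500 bp. That threshold was passed by 215, 3990, 24 and 2 of all TSSs. Scaling by flanks gave Hdac6 above untagged at 19.67% and 20.08% (4662 of all TSSs), Tip60 lower at 0.2174% of same-strand starts (67 of all TSSs), and mean Tip60 changes of −15.73% and −17%. Flank scaling by bins of GC, with the highest bin used for 558 starts above it, gave Hdac6 above untagged at 0.1087% and 0% (20 of all TSSs), Tip60 lower at 0.1087% and 0.1025% (15 of all TSSs), and mean Tip60 changes of −6.832% and −7.454%. That scaling of mean changes and the p400 alternatives were chosen after seeing the data. p400 changes were −36.03% and −39.34% with flank scaling by GC class and −34.64% at same-strand starts at least 100 bp away.

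With untagged signal subtracted, Tip60 was 0.0521 and 0.059 ppm and Hdac6 0.09513 and 0.09886 ppm at same-strand and opposite-strand starts, Tip60 changed by −89.82% and −85.7% and Hdac6 by 7.67% at opposite-strand starts. Downstream over upstream was then 87.62% (Hdac6) and 31.74% (Tip60) at same-strand and −20.64% and 2.806% at divergent starts, and the ratios in divergent pairs were 0.6878 (Hdac6) and 1.026 (Tip60). Same-strand starts at least 100 bp away had 0.2112 ppm Tip60, 18.36% for Hdac6 downstream over upstream, and −2.805% for Tip60, the value that turned from 2.844%. Trimmed means were 0.213 and 0.218 ppm for Tip60 and 0.1797 ppm for Hdac6 at opposite-strand starts. The cause of these moves was not tested. Median counts of 11 to 15 reads per start in the Flag libraries limit single starts to large ratios.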
